A study of Mus musculus with 8 samples.

Results

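The proteasome is the protease complex that degrades proteins tagged with ubiquitin in the cytoplasm and nucleus. Its 20S core is a barrel of alpha and beta rings, in which Psmb5, Psmb6 and Psmb7 encode the constitutive catalytic subunits, and its 19S regulatory particle binds ubiquitinated proteins, unfolds them with a ring of ATPases and removes their ubiquitin. Interferon induces the immunoproteasome subunits Psmb8, Psmb9 and Psmb10, which take the places of Psmb5, Psmb6 and Psmb7 and change the peptides that are made for presentation by class I molecules. Immune cells often express both sets of catalytic subunits.

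The RNA of these subunits was measured in neutrophils of the spleen, sorted as CD45+ CD11b+ Ly6G+ F4/80- cells after positive selection for CD11b, from 4 WT mice and 4 Cxcr2-/- mice. All mice were 10 weeks old, had the FVB background and lived under SOPF housing, free of specific and opportunistic pathogens, and each mouse gave 1 library. The knockout is germline, so that every cell of the animal lacked Cxcr2, the receptor for CXC chemokines that draws neutrophils out of the bone marrow, and not the neutrophils alone. The members are the 40 protein-coding genes of GENCODE M21, of 55414 genes listed in each library, whose symbol is Psma, Psmb, Psmc or Psmd followed by a number. They comprise 16 genes of the 20S core, the 3 immunoproteasome genes, 20 genes of the 19S regulatory particle, of which 3 (Psmd5, Psmd9 and Psmd10) encode chaperones that assemble its base, and Psmc3ip, which encodes a recombination protein and fits the rule by its symbol alone. Of the 40 members, 38 passed the filter on low counts. Psma8, the alpha subunit of germ cells, had counts of 0, 6, 7 and 0 in the WT and 0, 0, 0 and 4 in the Cxcr2-/- libraries, and Psmb11, the catalytic subunit of the thymic cortex, 0, 1, 0 and 2 against 4, 0, 0 and 2, and neither was tested.

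Summed over genes, a WT library held 34220182 to 46233555 counts, and a Cxcr2-/- library 37549648 to 43789253. Cxcr2, the targeted gene, ranged from 1719 to 2252 CPM (counts scaled to the TMM-normalized library size) in WT and from 12.9 to 20.7 CPM in Cxcr2-/- libraries, in the direction of every label. The summed CPM of 8 neutrophil markers was 31078 to 44810 in WT and 67647 to 81577 in Cxcr2-/- libraries. Most of it came from S100a8 (means of 12054 CPM in WT and 28418 CPM in Cxcr2-/-) and S100a9 (13530 and 33865 CPM). Of the 8 markers, 6 were higher, Itgam did not pass, and 1 was lower. The lower one was Csf3r, with means of 6960 CPM in WT and 3334 CPM in Cxcr2-/- libraries. The share of pairs that the counting assigned to no gene was 31.4% in WT replicate 1 and 40.0% to 41.5% in the other WT libraries. In Cxcr2-/- libraries it was 26.7% to 31.9%. In these bulk samples, fewer cells of a type and less RNA per cell cannot be told apart.

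Promoters are shown for some of the genes whose levels are described below. These are the constitutive catalytic genes Psmb5 and Psmb6, their immunoproteasome counterparts Psmb8 and Psmb9, and Psmd14, the subunit with the greatest rise. Each promoter is the stretch of 250 bases before the RefSeq transcription start (GRCm38.p6), on the strand of the gene. Capitals mark matches on either strand to 3 motifs that are explained after the sequences.
Psmb5 (chr14:54617996-54618245, minus strand): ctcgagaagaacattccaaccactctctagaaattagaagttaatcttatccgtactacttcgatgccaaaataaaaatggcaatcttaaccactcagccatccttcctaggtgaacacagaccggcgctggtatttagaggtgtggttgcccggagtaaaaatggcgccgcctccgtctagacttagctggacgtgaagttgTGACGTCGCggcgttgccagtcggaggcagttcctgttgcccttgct
Psmb8 (chr17:34197945-34198194, plus strand): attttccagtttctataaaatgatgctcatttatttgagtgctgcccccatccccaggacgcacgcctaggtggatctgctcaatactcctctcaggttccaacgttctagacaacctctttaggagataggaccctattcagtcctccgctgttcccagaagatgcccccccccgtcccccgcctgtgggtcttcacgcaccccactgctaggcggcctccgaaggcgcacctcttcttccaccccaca
Psmb6 (chr11:70525107-70525356, plus strand): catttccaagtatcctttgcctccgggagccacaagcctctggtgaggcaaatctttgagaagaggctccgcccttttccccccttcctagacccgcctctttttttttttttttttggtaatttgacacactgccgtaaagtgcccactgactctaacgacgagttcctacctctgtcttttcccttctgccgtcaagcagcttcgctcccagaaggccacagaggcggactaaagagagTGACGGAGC
Psmb9 (chr17:34187331-34187580, minus strand): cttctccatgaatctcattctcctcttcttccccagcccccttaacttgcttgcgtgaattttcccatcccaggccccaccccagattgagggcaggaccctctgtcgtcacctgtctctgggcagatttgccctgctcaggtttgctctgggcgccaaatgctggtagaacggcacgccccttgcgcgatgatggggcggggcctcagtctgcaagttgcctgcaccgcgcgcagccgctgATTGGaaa
Psmd14 (chr2:61711444-61711693, plus strand): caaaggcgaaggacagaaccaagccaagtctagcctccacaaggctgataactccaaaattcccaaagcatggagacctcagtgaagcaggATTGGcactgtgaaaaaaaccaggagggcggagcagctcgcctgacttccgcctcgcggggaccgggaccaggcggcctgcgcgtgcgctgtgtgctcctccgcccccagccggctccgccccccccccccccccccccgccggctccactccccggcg
The motifs were TGACNNNGC, the core of the antioxidant response element that Nfe2l1 and Nfe2l2 bind, CCAAT, the box bound by NF-Y, and GAAANNGAA, the core of the interferon response element. They were searched in windows from 250 bases before to 50 bases after the start, which the RefSeq table held for 33 of the 40 members. A window counted once for a motif however many matches it held, and no matches capitalised above share bases. TGACNNNGC was found in 5 of the 33 members (15.2%) and in 14.0% of 27025 genes. Its matches begin 47 bases before the start of Psmb5 and 9 bases before that of Psmb6, and Psmc6, Psmd9 and Psmd12 also held it. It was in none of the windows of Psmb8, Psmb9 and Psmb10. With a share of 14.0% over all genes, 3 genes are too few to tell a difference. CCAAT was found in 14 of the 33 (42.4%) and in 41.1% of all genes. GAAANNGAA was found in 5 (15.2%), against 9.76% of all genes. The 5 were Psmb3, Psmb4, Psmc2, Psmd4 and Psmd9, and none of the 3 immunoproteasome genes was among them. The starts of Psmb8 and Psmb9 in RefSeq lie inside the genes as GENCODE M21 draws them, so that other starts of these genes have other windows.

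In Cxcr2-/- spleen neutrophils the RNA of most subunits of the standard proteasome was higher, in the core and in the regulatory particle, and the RNA of the immunoproteasome subunits did not pass the test. Of the 38 members tested, 31 rose and 0 fell with an adjusted p under 0.05 (quasi-likelihood test of edgeR, Benjamini-Hochberg over 16778 genes), where 23.7% of all tested genes rose and 21% fell. The log2 fold change, Cxcr2-/- over WT, was positive for 38 of 38, with a median of 0.68 (1.61-fold) beside a median of 0.013 for all tested genes. At the thresholds of the study, which add a change of at least 1.5-fold, 21 members rose and 0 fell, against 15.7% of all tested genes in each direction. The CPM of the 4 Cxcr2-/- libraries lay above those of the 4 WT libraries for 31 members, as it did for 22.5% of all tested genes, and below them for 0 members, against 19.1%. The 31 members that rose were 13 of 14 tested genes of the 20S core and 18 of 20 genes of the 19S particle. At an unadjusted p under 0.05, 33 members were higher and 0 lower with edgeR, and 32 and 0 with DESeq2. Upper-quartile normalization moved the median of all tested genes to -0.11 and the higher share of all calls from 53.0% to 41.2%. It left 26 members higher and 0 lower. For the counts at an unadjusted p and with upper-quartile normalization, the share of all tested genes is not given here, so they have no background.

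**Figure D1:**
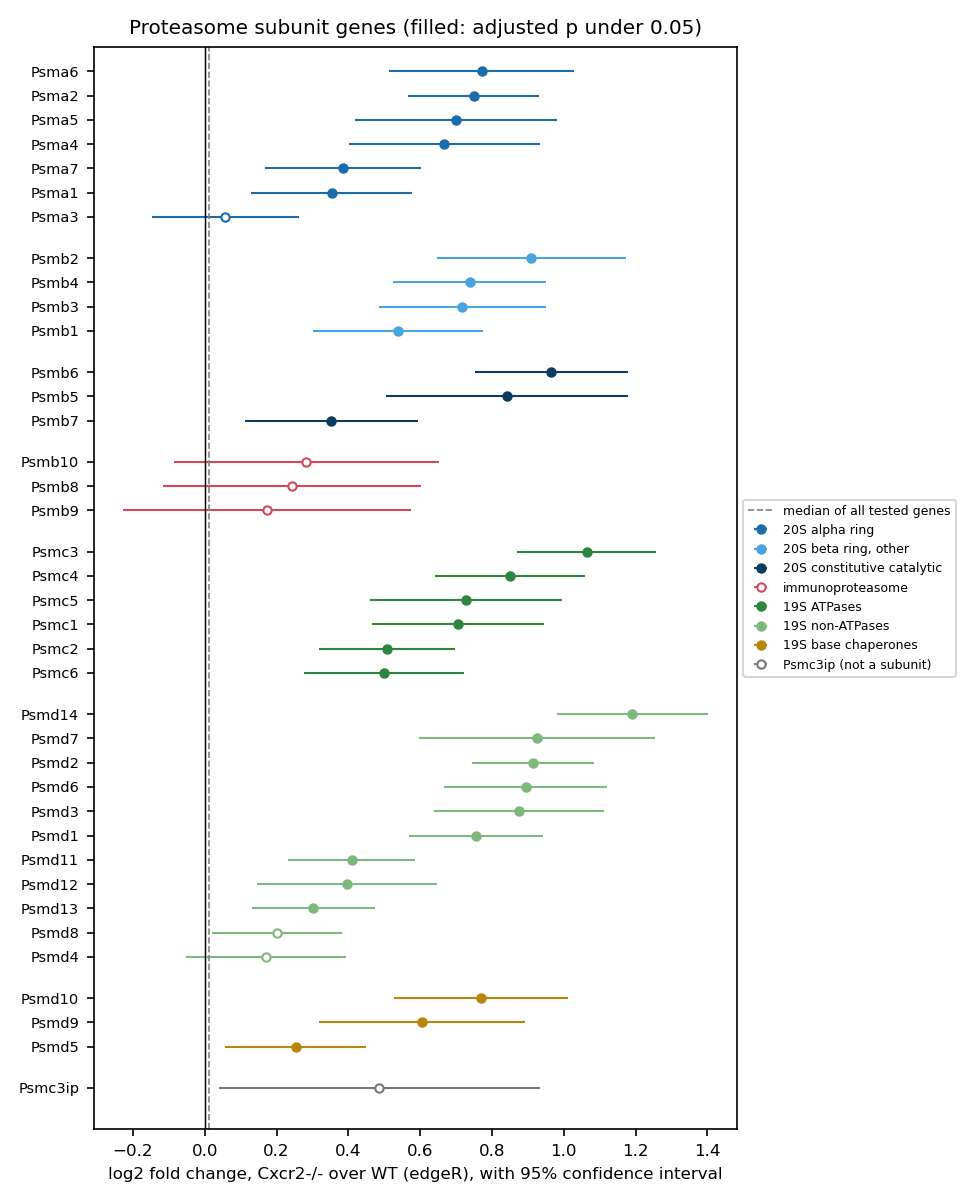
Log2 fold change of each tested member, Cxcr2-/- over WT, with its 95% confidence interval from edgeR, grouped by place in the complex. Filled points had an adjusted p under 0.05 and open points did not, and the dashed line is the median of all tested genes (0.013). The points of the 20S core run from 0.058 (Psma3) to 0.97 (Psmb6) and those of the 19S particle from 0.17 (Psmd4) to 1.19 (Psmd14), and the 3 immunoproteasome genes are open.

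In the alpha ring, which forms the gate of the barrel, 6 of 7 tested genes rose, with a median log2 fold change of 0.67. Psma6 was at 31.5, 22.9, 31.96 and 26.7 CPM in WT and at 42.0, 48.0, 51.4 and 51.6 CPM in Cxcr2-/- libraries, without overlap. It had the greatest rise of the ring, with a log2 fold change of 0.77 (standard error 0.12, edgeR adjusted p = 2.07e-04). Psma2 was at 37.7, 31.6, 35.9 and 35.03 CPM in WT and at 57.1, 60.6, 59.2 and 58.8 CPM in Cxcr2-/- libraries, a log2 fold change of 0.75 (standard error 0.08, edgeR adjusted p = 1.90e-05). The Cxcr2-/- libraries differed little among each other here, and every one was above every WT library. Psma3 stood apart from its ring, with 30.1, 25.4, 29.4 and 29.2 CPM in WT and 27.1, 28.9, 31.97 and 30.6 CPM in Cxcr2-/- libraries. The groups overlapped, and the log2 fold change of 0.058 (95% confidence interval -0.15 to 0.26, edgeR adjusted p = 0.651) turned to -0.061 with upper-quartile normalization. Psma4, Psma5, Psma7 and Psma1 had log2 fold changes from 0.35 to 0.70. Psma1, the lowest of these (adjusted p = 0.0140), lost its call without WT replicate 2 (adjusted p = 0.0696). It also lost it with upper-quartile normalization and with scaling by total counts.

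The other beta subunits, which carry no active site and complete the inner rings, rose in 4 of 4 tested genes, with a median log2 fold change of 0.73. Psmb2 was at 15.7, 12.1, 14.2 and 13.02 CPM in WT and at 26.5, 22.7, 30.1 and 23.9 CPM in Cxcr2-/- libraries (log2 fold change 0.91, standard error 0.12, edgeR adjusted p = 7.06e-05). Psmb4 was at 43.9, 38.6, 42.8 and 35.8 CPM in WT and at 68.1, 58.6, 70.7 and 71.3 CPM in Cxcr2-/- libraries (log2 fold change 0.74, standard error 0.10, edgeR adjusted p = 6.99e-05). Both genes had their groups apart, and the lowest Cxcr2-/- library of each was replicate 2. Psmb1, the smallest change of the 4, was at 38.6, 27.4, 35.01 and 34.3 CPM in WT and at 46.6, 45.7, 51.8 and 52.4 CPM in Cxcr2-/- libraries, with a log2 fold change of 0.54 (standard error 0.11, edgeR adjusted p = 1.56e-03). Psmb3 had a log2 fold change of 0.72.

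The 3 constitutive catalytic genes rose, Psmb6 by 1.95-fold, Psmb5 by 1.79-fold and Psmb7 by 1.28-fold. Psmb6, the caspase-like subunit (ENSMUSG00000018286, chr11:70525367-70527858), was at 20.6, 17.3, 19.5 and 17.8 CPM in WT and at 37.9, 33.3, 40.0 and 35.6 CPM in Cxcr2-/- libraries. The groups did not overlap, and the log2 fold change was 0.97 (standard error 0.10, edgeR adjusted p = 8.34e-06). Psmb5, the chymotrypsin-like subunit and the main target of proteasome inhibitor drugs (ENSMUSG00000022193, chr14:54614119-54618022), was at 5.31, 3.80, 5.53 and 5.004 CPM in WT and at 8.29, 7.94, 9.84 and 9.09 CPM in Cxcr2-/- libraries. Its lowest WT library was replicate 2, all Cxcr2-/- libraries were above all WT libraries, and the log2 fold change was 0.84 (standard error 0.16, edgeR adjusted p = 8.08e-04). Psmb7, the trypsin-like subunit (ENSMUSG00000026750, chr2:38588036-38644087), was at 20.3, 18.1, 22.02 and 19.1 CPM in WT and at 24.1, 23.2, 30.1 and 24.1 CPM in Cxcr2-/- libraries. Here the groups came within a small distance of each other, and replicate 3 was the highest library in either group. The log2 fold change was 0.35 (standard error 0.11, edgeR adjusted p = 0.0212), and the call was lost without Cxcr2-/- replicate 3 (adjusted p = 0.0946), without WT replicate 2 (0.0796) and without WT replicate 4 (0.0562). It was also lost with upper-quartile normalization (adjusted p = 0.108), total counts (0.0886) and protein-coding genes only (0.0527).

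The immunoproteasome genes overlapped between the groups, and 0 of 3 rose or fell. Psmb8, the counterpart of Psmb5 (ENSMUSG00000024338, chr17:34197721-34201454), was at 31.3, 23.9, 27.1 and 25.7 CPM in WT and at 44.8, 24.9, 31.4 and 26.8 CPM in Cxcr2-/- libraries. Psmb9, the counterpart of Psmb6 (ENSMUSG00000096727, chr17:34181987-34187764), was at 75.0, 57.7, 58.8 and 61.7 CPM in WT and at 108.2, 56.3, 60.4 and 60.5 CPM in Cxcr2-/- libraries. Psmb10, the counterpart of Psmb7 (ENSMUSG00000031897, chr8:105935735-105938444), was at 8.05, 8.28, 6.09 and 7.20 CPM in WT and at 10.9, 6.502, 9.10 and 9.58 CPM in Cxcr2-/- libraries. In each of the 3 genes replicate 1 was the highest and replicate 2 the lowest of the Cxcr2-/- libraries. The log2 fold changes were 0.24 for Psmb8 (95% confidence interval -0.12 to 0.60, edgeR adjusted p = 0.255), 0.17 for Psmb9 (-0.23 to 0.58, adjusted p = 0.475) and 0.28 for Psmb10 (-0.087 to 0.65, adjusted p = 0.200). With edgeR and with DESeq2, 0 of the 3 had an unadjusted p under 0.05. Without Cxcr2-/- replicate 1 the log2 fold changes were 0.042 for Psmb8, -0.094 for Psmb9 and 0.19 for Psmb10, and 0 of 3 passed. The intervals reach 0.60 or more, and whether these genes changed less than the constitutive ones was not tested.

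**Figure D2:**
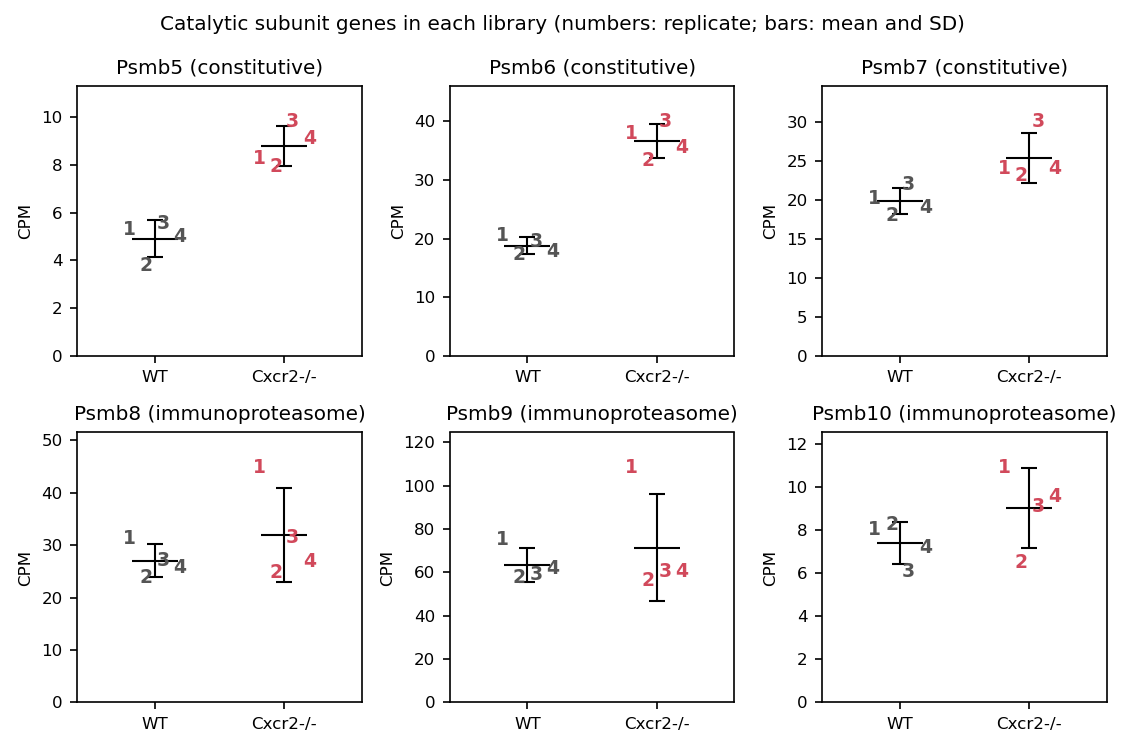
CPM of the 3 constitutive catalytic genes (upper row) and of the immunoproteasome genes that replace them (lower row) in each library. Numbers are replicates, horizontal bars are means and vertical bars are SD over 4 mice. Psmb5, Psmb6 and Psmb7 have their 4 Cxcr2-/- libraries above the WT libraries, and replicate 1 of the Cxcr2-/- mice stands highest for Psmb8 (44.8), Psmb9 (108.2) and Psmb10 (10.9).

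Within a library, the ratio of an immunoproteasome gene to the gene it replaces depends on no scaling between libraries. In CPM per kilobase of the principal transcript, Psmb9 to Psmb6 was 2.15, 1.96, 1.78 and 2.05 in WT and 1.69, 0.998, 0.892 and 1.003 in Cxcr2-/- libraries, without overlap. Psmb8 to Psmb5 was 3.25, 3.47, 2.71 and 2.84 in WT and 2.98, 1.73, 1.76 and 1.63 in Cxcr2-/- libraries, which overlapped through Cxcr2-/- replicate 1. Psmb10 to Psmb7 overlapped throughout, at 0.334 ± 0.0666 in WT and 0.317 ± 0.0714 in Cxcr2-/- mice (mean ± SD, n = 4 each). The share of the 3 immunoproteasome genes in the CPM per kilobase of all 6 catalytic genes was 59.9% ± 2.32 in WT and 49.8% ± 6.85 in Cxcr2-/- mice (SD, n = 4 each), with 59.9% in Cxcr2-/- replicate 1 and 44.9% to 47.6% in the other 3. These ratios are given as a description, with no test.

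**Figure D3:**
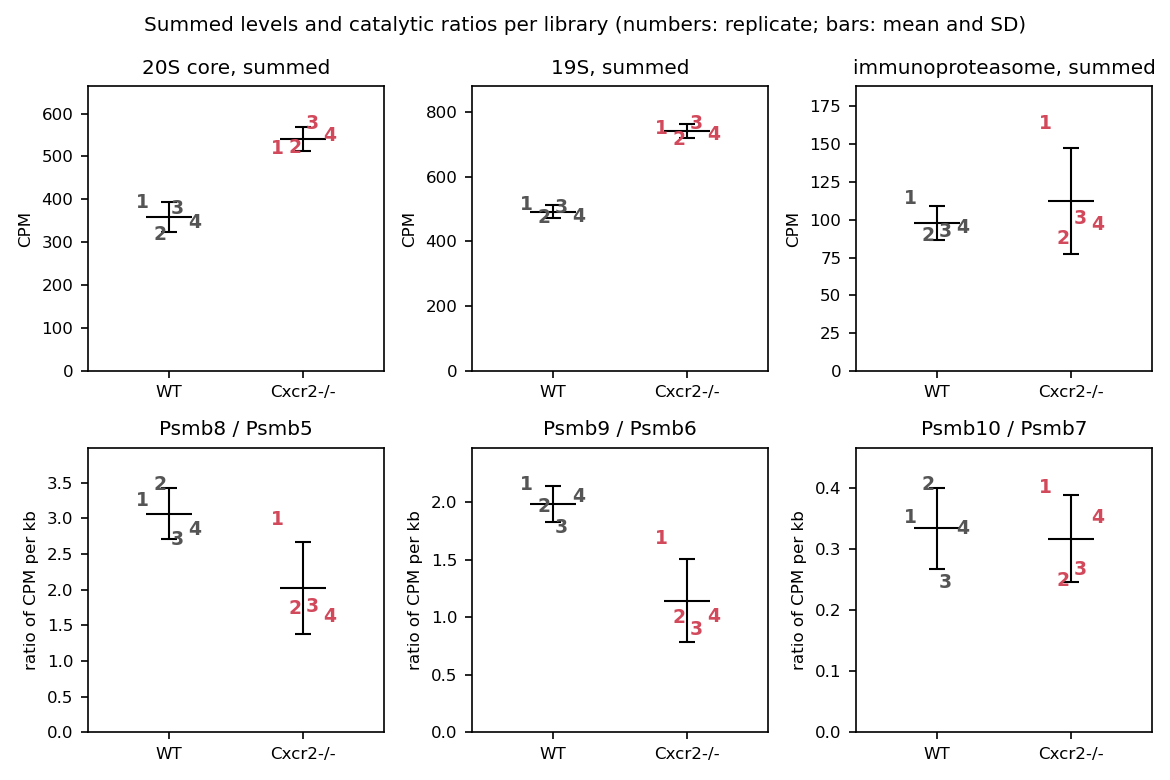
Summed CPM of the 20S core, the 19S particle and the immunoproteasome genes (upper row) and ratios of CPM per kilobase between each immunoproteasome gene and its constitutive counterpart (lower row), by library. Numbers are replicates and bars are mean and SD over 4 mice. The sums of the 20S core (317.0 to 393.6 in WT, 517.5 to 577.6 in Cxcr2-/-) and of the 19S particle (472.6 to 513.3 and 715.8 to 765.6) do not overlap, and those of the immunoproteasome do.

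The summed CPM of the 14 tested genes of the 20S core was 359 ± 34.2 in WT and 541 ± 28.2 in Cxcr2-/- mice. That of the 20 genes of the 19S particle was 492 ± 19.7 and 740 ± 21.5 (mean ± SD, n = 4 each). The ratio of the means was 1.51 for the core and 1.504 for the regulatory particle. The immunoproteasome sum was 97.7 ± 11.2 in WT and 112 ± 34.8 in Cxcr2-/- mice, of which replicate 1 had 163.9 and the other 3 had 87.7 to 100.9.

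The 6 ATPases, which form the ring that unfolds proteins and opens the core, rose in 6 of 6 genes, with a median log2 fold change of 0.72. Psmc3 (ENSMUSG00000002102, chr2:91054009-91066369) was at 25.8, 25.0, 26.2 and 26.0 CPM in WT and at 54.9, 47.4, 59.2 and 53.8 CPM in Cxcr2-/- libraries. The WT libraries were close together, all Cxcr2-/- libraries were far above them, and the log2 fold change was 1.06 (standard error 0.09, edgeR adjusted p = 1.97e-06). Psmc4 was at 18.2, 15.7, 17.7 and 15.7 CPM in WT and at 31.0, 28.97, 32.6 and 28.9 CPM in Cxcr2-/- libraries (log2 fold change 0.85, standard error 0.10, edgeR adjusted p = 2.05e-05). Psmc6 had the smallest change, from 24.3, 21.7, 25.8 and 24.3 CPM in WT to 29.7, 36.9, 32.1 and 37.0 CPM in Cxcr2-/- libraries (log2 fold change 0.50, standard error 0.10, edgeR adjusted p = 1.67e-03). Its groups did not overlap either. Psmc1, Psmc2 and Psmc5 had log2 fold changes of 0.71, 0.51 and 0.73.

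Of the 11 non-ATPase genes, 9 rose, with a median log2 fold change of 0.76 over the 11. Psmd14 encodes the deubiquitinase of the lid, which cuts the ubiquitin chain from the substrate before degradation (ENSMUSG00000026914, chr2:61711694-61800376). It was at 15.9, 14.6, 16.8 and 13.6 CPM in WT and at 34.5, 36.4, 33.4 and 34.5 CPM in Cxcr2-/- libraries, and its log2 fold change of 1.19 (standard error 0.10, edgeR adjusted p = 1.46e-06) was the largest of the 38 tested members. Psmd7, its partner in the lid, was at 6.32, 5.71, 6.60 and 4.86 CPM in WT and at 11.9, 9.10, 12.9 and 10.7 CPM in Cxcr2-/- libraries (log2 fold change 0.93, standard error 0.15, edgeR adjusted p = 3.44e-04). Both had every Cxcr2-/- library above every WT library. Psmd1 and Psmd2, the scaffolds of the base, had log2 fold changes of 0.76 and 0.92, and the lid subunits Psmd3 and Psmd6 0.87 and 0.89. Smaller changes were those of Psmd11 (0.41), Psmd12 (0.40) and Psmd13 (0.30), which passed, and of Psmd8 (0.20, edgeR adjusted p = 0.0684), which did not. The call of Psmd12 (adjusted p = 0.0142) was lost without Cxcr2-/- replicate 3 (0.0658) and with scaling by total counts. With upper-quartile normalization those of Psmd12 and Psmd13 were lost (0.0717 and 0.0707).

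Psmd4, a ubiquitin receptor of the particle, had the smallest change of this group. It was at 55.8, 43.1, 51.7 and 50.1 CPM in WT and at 63.7, 50.9, 56.4 and 54.7 CPM in Cxcr2-/- libraries, with overlap (log2 fold change 0.17, 95% confidence interval -0.053 to 0.39, edgeR adjusted p = 0.202). The base chaperones rose in 3 of 3 genes, Psmd10 with a log2 fold change of 0.77, Psmd9 with 0.60 and Psmd5 with 0.25. Psmd5 was near the threshold (adjusted p = 0.0372) and lost its call under 14 of 16 alternative fits, DESeq2 among them (adjusted p = 0.0580). Psmc3ip, the gene that belongs to no proteasome particle, was at 2.57 to 3.03 CPM in WT and at 2.84 to 5.16 CPM in Cxcr2-/- libraries (log2 fold change 0.49, edgeR adjusted p = 0.0724).

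**Figure D4:**
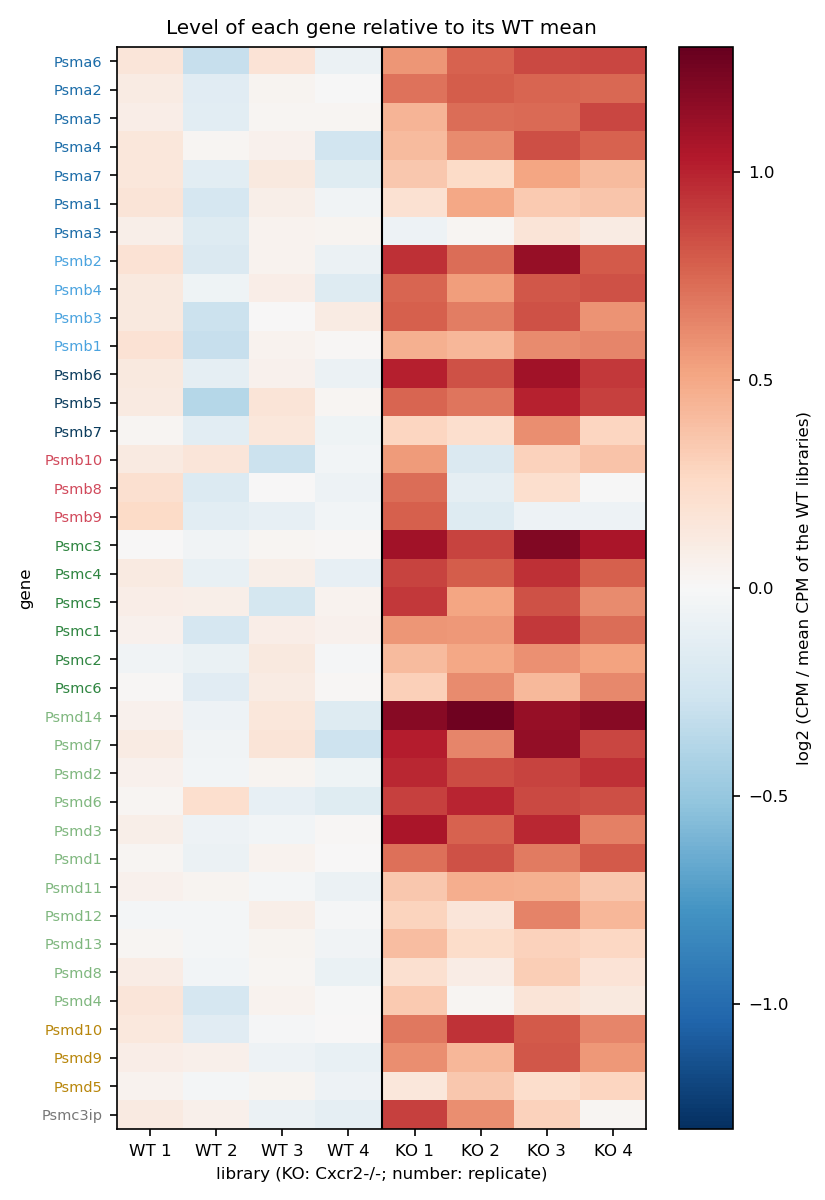
Level of each tested member in each library as log2 of its CPM over the mean CPM of the 4 WT libraries, red above and blue below that mean (KO: Cxcr2-/-). Genes of the 20S core and the 19S particle are red in all 4 Cxcr2-/- libraries with few exceptions such as Psma3, and Psmb8, Psmb9 and Psmb10 are most red in Cxcr2-/- replicate 1.

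Members also differed in how they varied between mice of a group. Of the 34 tested genes of the 20S core and 19S particle, WT replicate 1 was the highest WT library in 21 and WT replicate 2 the lowest in 20, so that part of the spread was shared between genes. Among the Cxcr2-/- libraries, replicate 3 was the highest in 16 and replicate 2 the lowest in 17. The coefficient of variation between the 4 Cxcr2-/- mice had a median of 28.1% over the 3 immunoproteasome genes and of 8.78% over the other tested members, and in WT mice these medians were 12.6% and 8.004%. Without Cxcr2-/- replicate 1, an alternative chosen after seeing the data, the medians in Cxcr2-/- mice were 12.03% over the 3 immunoproteasome genes and 7.83% over the other tested members.

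Per kilobase, the order of the levels also differed between the groups. In WT mice Psmb9 had the highest level of the 38 tested members, at 46.8 ± 5.90 CPM per kilobase (SD, n = 4), followed by Psmd8 at 41.4 ± 2.27 and Psma7 at 41.2 ± 4.62, neighbours that lie within their SDs of each other. In Cxcr2-/- mice the highest was Psmb3 at 57.9 ± 4.43, followed by Psmb4 at 56.8 ± 4.99 and Psma7 at 53.8 ± 4.08, with Psmb9 next at 52.8 ± 18.2, again within the spread of its neighbours. Psmb5 was among the lowest of the core in both groups, at 5.46 ± 0.859 in WT and 9.78 ± 0.942 in Cxcr2-/- mice.

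Of 30 genes that act on or with the proteasome and are outside the symbol rule, 15 rose and 5 fell with an adjusted p under 0.05, where 23.7% of all tested genes rose and 21% fell. Among the activators and inhibitor, 4 of 5 rose, Psmf1, the inhibitor, with a log2 fold change of 0.63 and the activators Psme1, Psme2 and Psme3 with 0.62, 0.59 and 0.45, while Psme4 was at 0.082 (edgeR adjusted p = 0.504). Psme1 and Psme2 encode the interferon-induced 11S activator that often works with the immunoproteasome. Among the assembly chaperones of the core 3 of 5 rose, of which Psmg4 had the largest value (1.22, with 0.492 to 0.935 CPM in WT and 1.29 to 2.44 CPM in Cxcr2-/- libraries) and Pomp, which closes the assembly of the core, had 0.65. Among the 6 proteins bound to the 19S particle, 2 rose and 1 fell, with a median log2 fold change of 0.076. Sem1, a small lid subunit, rose by 0.91 on the log2 scale and Usp14, a bound deubiquitinase, by 0.82. Ube3c, a bound ubiquitin ligase, had a log2 fold change of -0.26 and fell. Adrm1 (0.19), Uchl5 (-0.20) and Ecpas (-0.038) did not pass (edgeR adjusted p = 0.148, 0.251 and 0.752). Among the shuttles that bring ubiquitinated proteins to the proteasome, 5 of 6 rose and Ubqln2 fell (log2 fold change -0.67).

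Ddi2, a shuttle and protease, had the largest rise of the 30. It was at 53.7, 61.5, 45.7 and 60.8 CPM in WT and at 169.0, 145.3, 155.6 and 143.2 CPM in Cxcr2-/- libraries, far apart, with a log2 fold change of 1.47 (standard error 0.11, edgeR adjusted p = 7.62e-07). Ddi2 is known to cut and so activate Nfe2l1, the transcription factor that raises proteasome genes when the proteasome is inhibited, after Vcp has drawn it from the endoplasmic reticulum and Ngly1 has removed its sugars. Vcp rose (log2 fold change 0.62), and Ngly1 fell, from 92.0, 79.6, 92.6 and 91.2 CPM in WT to 44.8, 60.4, 45.8 and 59.9 CPM in Cxcr2-/- libraries (log2 fold change -0.75, edgeR adjusted p = 1.99e-04). Nfe2l1 itself was at 80.6, 79.7, 63.7 and 72.0 CPM in WT and at 105.4, 97.7, 79.5 and 80.1 CPM in Cxcr2-/- libraries, which overlapped, and did not pass (log2 fold change 0.29, edgeR adjusted p = 0.0552). Nfe2l2, the related factor of the oxidative stress response, fell slightly (log2 fold change -0.23, edgeR adjusted p = 0.0382).

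**Figure D5:**
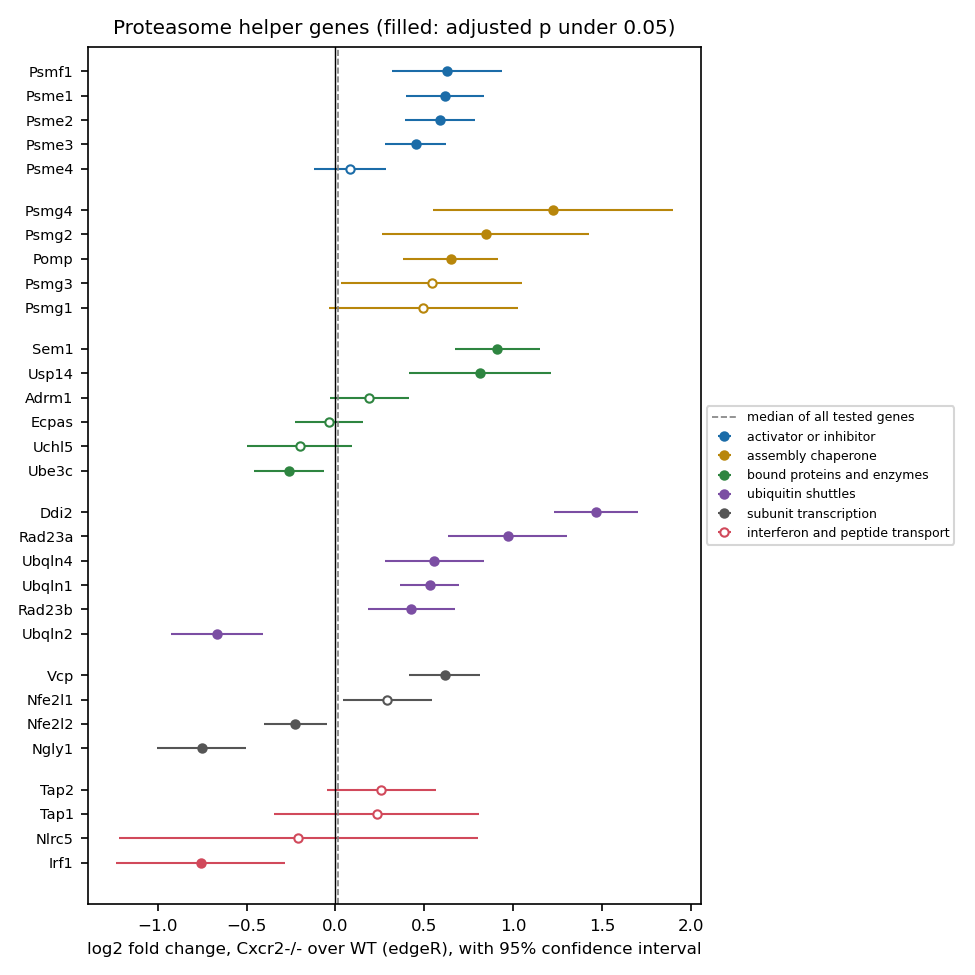
Log2 fold change, Cxcr2-/- over WT, with its 95% confidence interval from edgeR for the 30 genes that act on or with the proteasome, grouped by role. Filled points had an adjusted p under 0.05. Ddi2 (1.47) and Psmg4 (1.22) lie farthest to the right, and Ngly1 (-0.75) and Irf1 (-0.76) farthest to the left.

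Cxcr2-/- replicate 1 was also the highest Cxcr2-/- library for Irf1, Nlrc5, Tap1 and Tap2, which act in the induction of the immunoproteasome or in the transport of its peptides. Irf1, a transcription factor of interferon responses, was at 332.7, 386.7, 265.3 and 338.7 CPM in WT and at 310.7, 133.7, 161.3 and 175.9 CPM in Cxcr2-/- libraries, and fell (log2 fold change -0.76, edgeR adjusted p = 0.0133). Replicate 1 was the only Cxcr2-/- library inside the WT range. Nlrc5, the activator of class I genes, was at 19.2, 38.8, 20.98 and 19.5 CPM in WT and at 51.1, 8.27, 11.2 and 14.6 CPM in Cxcr2-/- libraries, so that replicate 1 was above and the other 3 were below all WT libraries. Its log2 fold change was -0.21 (edgeR adjusted p = 0.742) with all libraries and -1.11 without Cxcr2-/- replicate 1 (adjusted p = 4.60e-03). Tap1, a subunit of the peptide transporter, which overlaps Psmb9 on the opposite strand, was at 112.4, 104.2, 83.6 and 103.8 CPM in WT and at 216.5, 91.0, 80.4 and 86.6 CPM in Cxcr2-/- libraries. Tap2, the other subunit, had a log2 fold change of 0.26. Tap1 and Tap2 did not pass with all libraries (edgeR adjusted p = 0.507 and 0.159) or without Cxcr2-/- replicate 1 (0.118 and 0.523). Without that library the counts of members that rose were 31 of 38 in all, 13 in the 20S core and 18 in the 19S particle.

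Markers of cell state and of other cell types moved with the genotype beside these genes. The summed CPM of 8 markers of immature neutrophils was 19418 to 23495 in WT and 44544 to 63586 in Cxcr2-/- libraries, with 8 of 8 higher. Most of it came from Ltf (means of 8700 CPM in WT and 21059 CPM in Cxcr2-/-) and Ngp (8357 and 21082 CPM). The sum was highest in Cxcr2-/- replicate 1. Mpo, Elane, Prtn3 and Ctsg were instead higher in Cxcr2-/- replicates 3 and 4 than in 1 and 2. Mpo was at 19.1, 20.2, 81.2 and 145.8 CPM in Cxcr2-/- libraries. The summed CPM of 6 genes of cycling cells was 274.1 to 323.0 in WT and 844.5 to 950.5 in Cxcr2-/- libraries, with 6 of 6 higher. Among B cell markers 5 of 6 were lower, with sums of 63.1 to 143.1 in WT and 28.3 to 63.4 in Cxcr2-/- libraries. Sums for monocytes and macrophages were 733.5 to 867.5 in WT and 879.3 to 997.2 in Cxcr2-/- libraries (1 of 7 higher and 2 lower). The higher marker was Ly6c2, at 193.8 to 270.0 CPM in WT and 572.8 to 663.1 CPM in Cxcr2-/- libraries, and the lower ones were Csf1r and Adgre1. Without Ly6c2, left out after seeing the data, the sum of the other 6 was 493.6 to 597.5 in WT and 245.5 to 358.1 in Cxcr2-/- libraries. Sums for T cells were 96.2 to 116.8 and 90.2 to 138.5 (0 higher and 1 lower of 3 tested). Most of the T cell sum was Cd3d, with means of 99.1 CPM in WT and 108.4 CPM in Cxcr2-/- libraries. Cd3e, Cd3g, Cd8a and Trac had at most 1.35 CPM in any library, so the sum says little about T cells. The lower T cell marker was Cd4, with means of 6.16 and 1.34 CPM. The remaining sums were below 70 CPM in every library, namely dendritic cells (5.64 to 24.4 in WT and 3.76 to 6.51 in Cxcr2-/-, 1 of 3 tested lower), eosinophils (48.8 to 68.9 and 37.6 to 64.1, 2 of 4 higher and 2 lower), erythroid cells (1.36 to 3.69 and 1.16 to 9.97, 0 of 2 tested changed) and platelets (3.96 to 5.72 and 2.74 to 4.65, the 1 tested lower). No marker was at 0 in all libraries, and Trac, Siglech, Klf1, Pf4, Ppbp and Gp1bb were at 0 in at least 1. The part of these cells and states in the higher proteasome RNA was not tested.

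The members lie on 16 chromosomes, with 7 on chromosome 11. Exons of 2 members share bases with another gene on the same strand (Psmb5 with Mir686, Psmd1 with Gm21972) and those of 11 members with a gene on the opposite strand, among them Psmb8, Psmb9, Psmb7 and Psmc3, and 3 (Psmb5, Psmb6 and Psmb7) have a pseudogene named for them. The strand setting of the counting is not given in the sources used here, and the counts of these genes are uncertain to that extent.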

How the data were processed

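Ribosomal RNA was depleted, strand-specific libraries were made and both ends were sequenced. The authors used STAR on trimmed reads with the mm10 genome, then HTSeq for counting on genes, and deposited raw counts per gene without normalization (versions not given in the sources used here). Groups and replicate numbers came from the labels. The counts were tested in R 4.3.3 with edgeR 4.0.16 (quasi-likelihood test, TMM, filterByExpr, Benjamini-Hochberg), which left 16778 genes, and the steps were tested on simulated counts. CPM per kilobase used the length of the principal GENCODE M21 transcript. Of 55414 identifiers, 52081 were in GENCODE M21 (GRCm38), 35 with the same version number, so the authors counted on another release. No pair of replicates agreed within sampling noise (23.9 to 99.0 chi-square per gene). The members and lists were chosen with earlier results of these data known.

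In each of 4 groups of subunits the 2 largest changes and the smallest were given by library, with all 6 catalytic genes, and among the other genes of the pathway the largest rise and fall of each role were named. Psmd8, Psmd12 and the remaining genes with values were chosen after their values were seen. Some genes of the planned lists are not reported here. The alternatives were DESeq2 1.42.0, RLE, upper-quartile and total-count scaling, no filter, at least 10 counts in every library, protein-coding genes only, the replicate number as a block, the 1.5-fold threshold, and each library left out in turn. Promoter sequences are from RefSeq (GRCm38.p6).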

Additional observations from a re-analysis of the deposited data

Results flagged for a closer look

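Of 92 sets of 4 libraries (38 tested members, 4 summed levels, 3 ratios of catalytic genes and the immunoproteasome share, each in both groups), 7 held a library far from the other 3 by Dixon's criterion, where chance flags about 1 in 20. The sums and ratios are built from the same members, so the sets are not separate tests and 7 cannot be weighed against that rate. Cxcr2-/- replicate 1 accounted for 3 of them, Psmb9 at 108.2 CPM (the other 3 at 56.3 to 60.5), the ratio of Psmb8 to Psmb5 at 2.98 (1.63 to 1.76) and the ratio of Psmb9 to Psmb6 at 1.69 (0.892 to 1.003). Psmb7 was high in Cxcr2-/- replicate 3, at 30.1 CPM (23.2 to 24.1). In WT mice, Psmc1 was low in replicate 2, at 18.2 CPM (21.95 to 22.4), Psmc5 was low in replicate 3, at 9.94 CPM (12.1 to 12.4), and Psmd12 was high in replicate 3, at 15.6 CPM (14.5 to 14.6).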

How the results depend on the processing

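Over 16 alternative fits, 26 of the 31 members that rose kept their call in each. Psma1, Psmb7, Psmd5, Psmd12 and Psmd13 lost it in at least 1. The 1.5-fold threshold is not among these fits, and 21 members rose with it. The number of members that rose was 26 with upper-quartile normalization, 27 with total counts, 29 with protein-coding genes only, 30 with DESeq2 and 28 to 31 with a library left out. In the fits with a library left out, 3426 to 3774 of 17044 to 17291 tested genes rose. Upper-quartile normalization moved the median of all tested genes to -0.11 and the higher share of all calls from 53.0% to 41.2%. The median log2 fold change of the 20S core was 0.59 with it and 0.64 to 0.75 with a library left out, and that of the 19S particle 0.60 with it, 0.63 with total counts, 0.64 with protein-coding genes only and 0.65 to 0.74 with a library left out. Psma3 turned to -0.061 with upper-quartile normalization, -0.026 with total counts, -0.015 with protein-coding genes only and -0.017 without WT replicate 2, the lowest of -0.017 to 0.10 with a library left out, and Psmb9 to -0.094 without Cxcr2-/- replicate 1, the lowest of -0.094 to 0.28. Of the other pathway genes 3 fell with no filter and 3 to 5 with a library left out, where 3 came without WT replicate 4, Cxcr2-/- replicate 2 or Cxcr2-/- replicate 4. Leaving out Ly6c2 turned the difference of the mean monocyte and macrophage sums, Cxcr2-/- minus WT, from 153.7 to -235.0 CPM. Other causes were not tested.

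Same-numbered libraries are different animals, and the correlations of their deviations from the group means were -0.25 to 0.15. Libraries with different numbers had correlations of -0.18 to 0.25. So few values cannot show whether same-numbered libraries shared a batch, and the main comparison used no pairing. With the replicate number as a block 30 members rose and Psmd5 lost its call (adjusted p = 0.0687). Psma8 and Psmb11, with at most 7 counts in a library, were too low to test.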
